A study of Mus musculus with 12 samples.

Results

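Fatty acid uptake and oxidation genes of the mouse heart were followed across 4 groups of libraries. The set holds 40 genes out of the 17536 listed in the deposited table, chosen by symbol for their roles in fatty acid uptake, the carnitine shuttle, beta-oxidation, lipolysis and regulation by PPAR receptors. All 40 were listed, and all 40 passed the filter on low counts that left 13489 genes. No member was called different by edgeR, DESeq2 or limma-voom in any of the 6 comparisons between groups. The results are therefore levels, directions and the size of difference that the spread between libraries left possible.

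Hearts came from outbred ICR mice aged 10 weeks, and RNA of each group was sequenced in 3 libraries. The series asks how FMT affects a heart damaged by busulfan, an alkylating chemotherapy drug. One group is labelled only as control, and another received busulfan at 20 mg/kg. The control-FMT and AOS-FMT groups are labelled B+Con-FMT and B+AOS10mg/kg-FMT. Both abbreviations are kept from the labels, which state no busulfan dose for the FMT groups. Strain, tissue and age are the same in every group. The labels number the replicates without stating that they are separate animals, so the p-values measure only the spread between these samples, which may be technical. Within each group, all pairs of libraries were further apart than read sampling gives (chi-square over genes divided by its degrees of freedom, 8.88 to 71.5).

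The adult heart draws most of its fuel from fatty acids. Lipoprotein lipase frees them from circulating triglyceride, CD36 and fatty acid transport proteins carry them into the cell, and fatty acid binding proteins hold them in the cytosol. After activation to acyl-CoA, the carnitine shuttle moves them into mitochondria, where the beta-oxidation spiral cuts them into acetyl-CoA and passes electrons to the respiratory chain. PPAR receptors paired with RXR turn on many of these genes when fatty acids bind them.

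Library totals lay between 11333650 and 14335688 estimated counts. Levels are given as CPM, the count per gene relative to the TMM-scaled library size, and fold changes are log2 values from edgeR's quasi-likelihood test with their standard errors. Calls used a threshold of 0.05 on p-values adjusted by Benjamini-Hochberg over every gene tested. All 14 cardiomyocyte markers were detected in every library, and their summed level was 118915 to 169926 CPM in control, 152573 to 175363 CPM in busulfan, 136434 to 144354 CPM in control-FMT and 101682 to 136593 CPM in AOS-FMT. The summed level of 4 atrial markers ran from 546 to 5985 CPM in control, 8.18 to 882 CPM in busulfan, 14.2 to 1255 CPM in control-FMT and 874 to 8414 CPM in AOS-FMT. AOS-FMT replicate 2 was the lowest of the 12 libraries for 27 of the 40 fatty acid genes, against 18.2% of all genes tested. Control replicate 1 was the highest for 14 of them, against 15.7% of all genes, and busulfan replicate 1 for 12, against 6.88%.

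Levels of different genes were compared as the authors' deposited TPM, which is per length. Fabp3, the heart fatty acid binding protein, was the most abundant of the set, at a mean level of 13514 TPM over the 12 libraries, with a range of 8386 to 16932 TPM. Its level lay above that of nearly all genes tested. Next in level came Fabp4, a fatty acid binding protein of adipocytes and endothelium, at 1559 TPM, then Etfb at 1304 TPM, Hadhb at 1164 TPM and Lpl at 1048 TPM. At the low end stood Cpt1a at 14.9 TPM, the fatty acid transport protein Slc27a4 at 12.1 TPM and the receptor Ppara at 10.6 TPM. Only Fabp3 had a range that did not overlap that of its neighbour in this order.

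**Figure D1:**
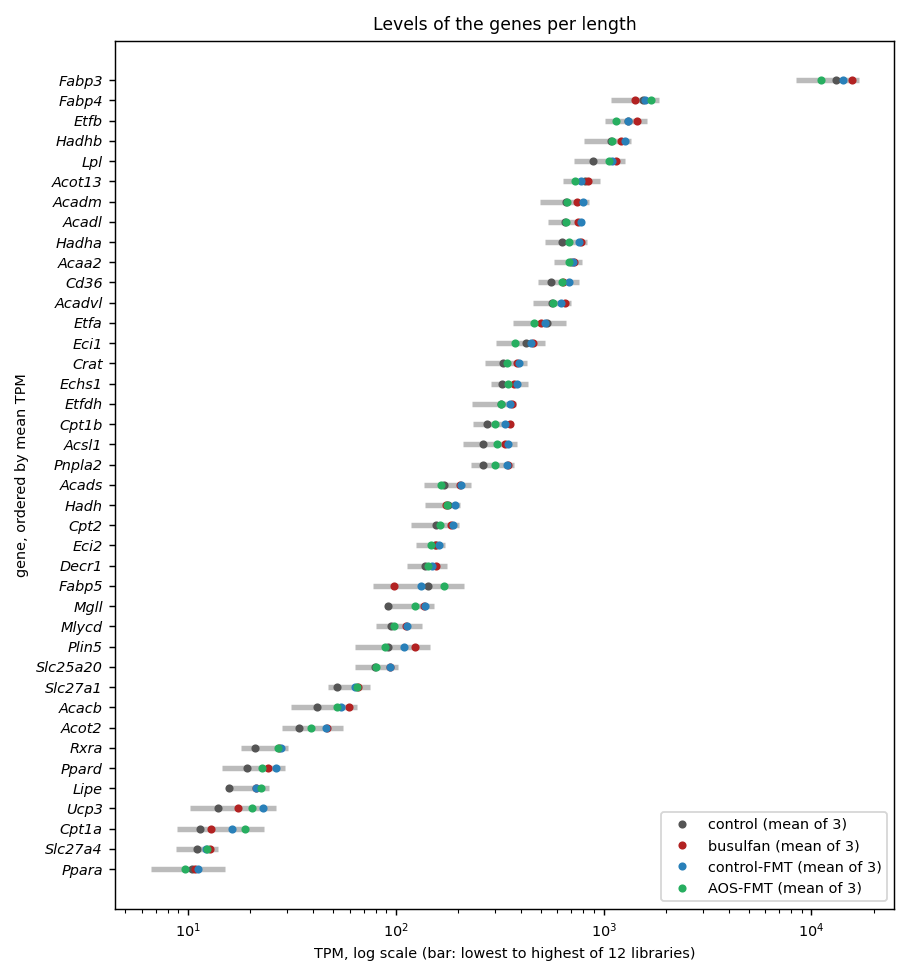
TPM of each gene on a log scale, as the mean of 3 libraries per group (points) and the lowest to highest of 12 libraries (bars), ordered by mean TPM. Fabp3 stands alone at a mean of 13514 TPM, and the other genes form a continuous series down to Ppara at 10.6 TPM.

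Together the 40 genes took 2.71%, 2.16% and 2.26% of the counts in the control libraries, 2.74%, 2.46% and 2.61% in busulfan, 2.62%, 2.54% and 2.42% in control-FMT and 2.62%, 1.86% and 2.33% in AOS-FMT. The share was highest in busulfan replicate 1 and lowest in AOS-FMT replicate 2, and the ranges of the 4 groups overlapped. In bulk samples, fewer cells of a type and less RNA per cell cannot be told apart.

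**Figure D2:**
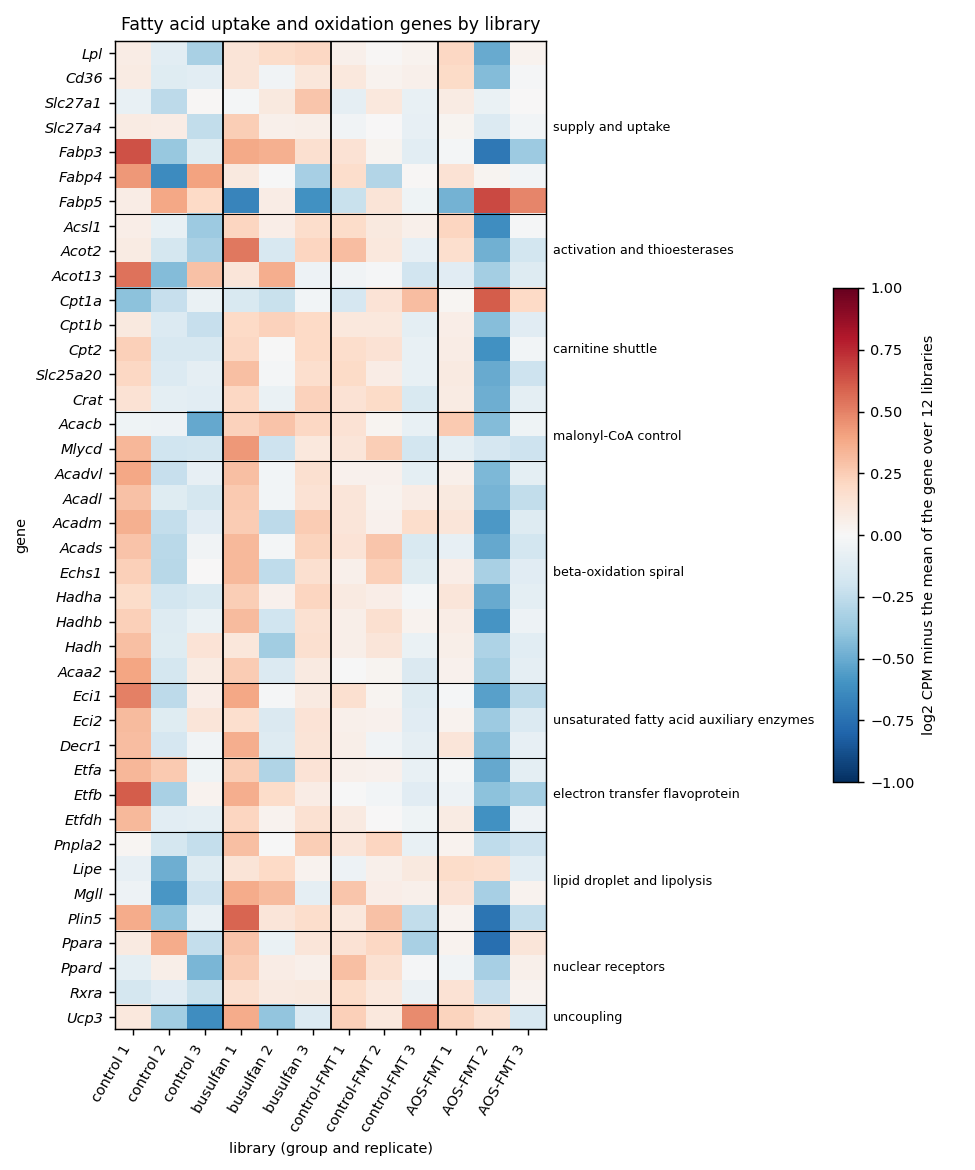
Heat map of log2 CPM of the 40 genes in the 12 libraries, each gene relative to its own mean over the libraries, with genes grouped by role and groups of libraries divided by vertical lines. AOS-FMT replicate 2 is the lowest library for 27 of the 40 genes and the highest for Cpt1a and Fabp5.

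Busulfan was first compared with control, the comparison that asks what the drug did to the heart. The fatty acid genes tended to lie slightly above control, with 33 of 40 fold changes above 0 and a median log2 fold change of 0.14, beside a median of -0.01 over all genes tested. None of the 40 was called, where 0.0593% of all genes were. At an unadjusted p under 0.05 there were 5 members higher and 0 lower, where 5.54% of all genes were higher and 5.78% lower. The 4 genes of lipid droplets and lipolysis had the highest median among the roles, at 0.33, with all 4 above 0. The 95% interval of the fold change stayed within 1.5-fold in both directions for 26 of the 40 genes and within 2-fold for 39. The median was 0.26 without control replicate 1 and 0.22 without busulfan replicate 2. It was 0.08 without control replicate 2 or busulfan replicate 1 and 0.07 without control replicate 3. With the atrial score (the mean log2 level of a library's atrial markers) as a covariate it was -0.10. In that fit 0 members had an unadjusted p under 0.05, where 844 of 13489 genes did. Cardiomyocyte markers lay above 0 in 14 of 14, with a median of 0.15, while fibroblast markers lay below 0 in 7 of 8, with a median of -0.65, and macrophage markers in 10 of 11, with a median of -0.45. The part of these markers in the members' values was not tested.

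AOS-FMT was next compared with busulfan. Here 36 of the 40 fold changes lay below 0, with a median of -0.27 beside 0.00 over all genes, and 49.3% of all genes below 0. None was called, where 0.0445% of all genes were. At an unadjusted p under 0.05 there were 8 members lower, namely Fabp3, Acads, Plin5, Cpt1b, Etfb, Pnpla2, Slc25a20 and Eci1, where 5.85% of all genes were lower. Cpt1a and Fabp5 were the 2 higher at that level, where 7.8% of all genes were. Of the 40 intervals, 10 stayed within 1.5-fold and 37 within 2-fold.

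The size of this lean depended on single libraries. Without AOS-FMT replicate 2 the median was -0.11, with 35 of 40 still below 0. No member then had an unadjusted p under 0.05, where 890 of 13594 genes tested did. Without AOS-FMT replicate 1 there were 18 such members, where 2604 of 13706 genes were at that level. There were 5 without AOS-FMT replicate 3 (1556 of 13654 genes), 1 without busulfan replicate 1 (1120 of 13716) and 4 without busulfan replicate 3 (1671 of 13716). The number over all genes also changed with single libraries, from 1841 of 13489 with every library. All 14 cardiomyocyte markers also lay below 0 in AOS-FMT against busulfan, with a median of -0.44, 9 of them at an unadjusted p under 0.05 and 0 called. Fibroblast markers lay above 0 in 8 of 8, with a median of 0.69, and macrophage markers in 10 of 11, with a median of 0.51. Of the 12 libraries, AOS-FMT replicate 2 had the lowest summed cardiomyocyte markers, at 101682 CPM. It had the highest sums of atrial, fibroblast and macrophage markers, at 8414, 8631 and 1184 CPM. The part of cardiomyocyte, fibroblast and macrophage RNA in the result was not tested. With the atrial score as a covariate the members' median was -0.06, with the white adipocyte score -0.08 and with the liver score -0.24. The members at an unadjusted p under 0.05 then numbered 0, 0 and 1, where 552, 551 and 731 of 13489 genes were at that level. White adipocyte scores were 1.18 to 2.86 in AOS-FMT and -0.49 to 1.14 in busulfan, and liver scores 2.28 to 5.08 and 1.26 to 1.58. Neither score overlapped between the groups, so these fits cannot separate them from group.

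Against busulfan, control-FMT gave smaller values. Of the 40 members, 33 lay below 0, with a median of -0.08 beside 0.00 over all genes. No member had an unadjusted p under 0.05, where 1.76% of all genes were higher and 0.89% lower at that level. None was called, as for all genes (0%). All 40 intervals stayed within 2-fold and 33 within 1.5-fold. The median was -0.16 without busulfan replicate 2, -0.01 without busulfan replicate 1, -0.015 without control-FMT replicate 3 and 0.033 with the white adipocyte score as a covariate. In the direct comparison of AOS-FMT with control-FMT, which asks whether the kind of FMT mattered, 35 members lay below 0 with a median of -0.18. None was called, where 0.0297% of all genes were, and none had an unadjusted p under 0.05, where 3.88% of all genes were higher and 2.35% lower. Without AOS-FMT replicate 2 that median was -0.05, with 26 members below 0. Without AOS-FMT replicate 1 it was -0.28, with 7 members at an unadjusted p under 0.05, where 1424 of 13706 genes were. With the atrial score as a covariate it was 0.049. Atrial scores ran from 6.58 to 10.4 in AOS-FMT and 1.01 to 6.31 in control-FMT, without overlap, so that fit cannot separate them from group. The comparisons with busulfan share its 3 libraries, so their directions are not independent of each other.

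Both FMT groups were also set against control. In control-FMT 25 members lay above 0 with a median of 0.07, and 0 were called, as for all genes (0%). The median was 0.19 without control replicate 1, 0.12 without control-FMT replicate 3, and at most 0.02 without control replicate 2, control replicate 3 or control-FMT replicate 2. With the atrial score as a covariate it was -0.15, with 6 members at an unadjusted p under 0.05, where 1168 of 13489 genes were. Ucp3, Mgll and Rxra were the 3 with an unadjusted p under 0.05, all higher, where 4.46% of all genes were higher and 3.74% lower. Leaving out single libraries gave 1 to 5 such members. There was 1 without control replicate 3 (834 of 13697 genes at that level) or control-FMT replicate 2 (835 of 13701). There were 5 without control replicate 2 (1767 of 13670) or AOS-FMT replicate 2 (1325 of 13594). In AOS-FMT 29 members lay below 0 with a median of -0.14, and 0 were called, where 0.0815% of all genes were. Cpt1a and Lipe were higher and Etfa was lower at an unadjusted p under 0.05, where 5.43% of all genes were higher and 3.44% lower. Their number was 9 without control replicate 2 (2215 of 13670 genes at that level) and 8 without AOS-FMT replicate 1 (1325 of 13706). It was 6 with the atrial score as a covariate, 1 with the white adipocyte score and 1 with the liver score. Of the 13489 genes tested, 1378, 850 and 442 were then at that level. Liver scores ran from -0.12 to 0.54 in control and 2.28 to 5.08 in AOS-FMT, without overlap, so the fit with that score cannot separate it from group. Without control replicate 1 the median of AOS-FMT against control was 0.00, with 20 members above 0. It was -0.03 without AOS-FMT replicate 2, -0.26 without AOS-FMT replicate 1 and -0.23 without control replicate 2. In a test of any difference among the 4 groups 0 members were called, where 0.104% of all genes were, and Cpt1a alone had an unadjusted p under 0.05 (edgeR adjusted p = 0.431), where 10.2% of all genes did.

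**Figure D3:**
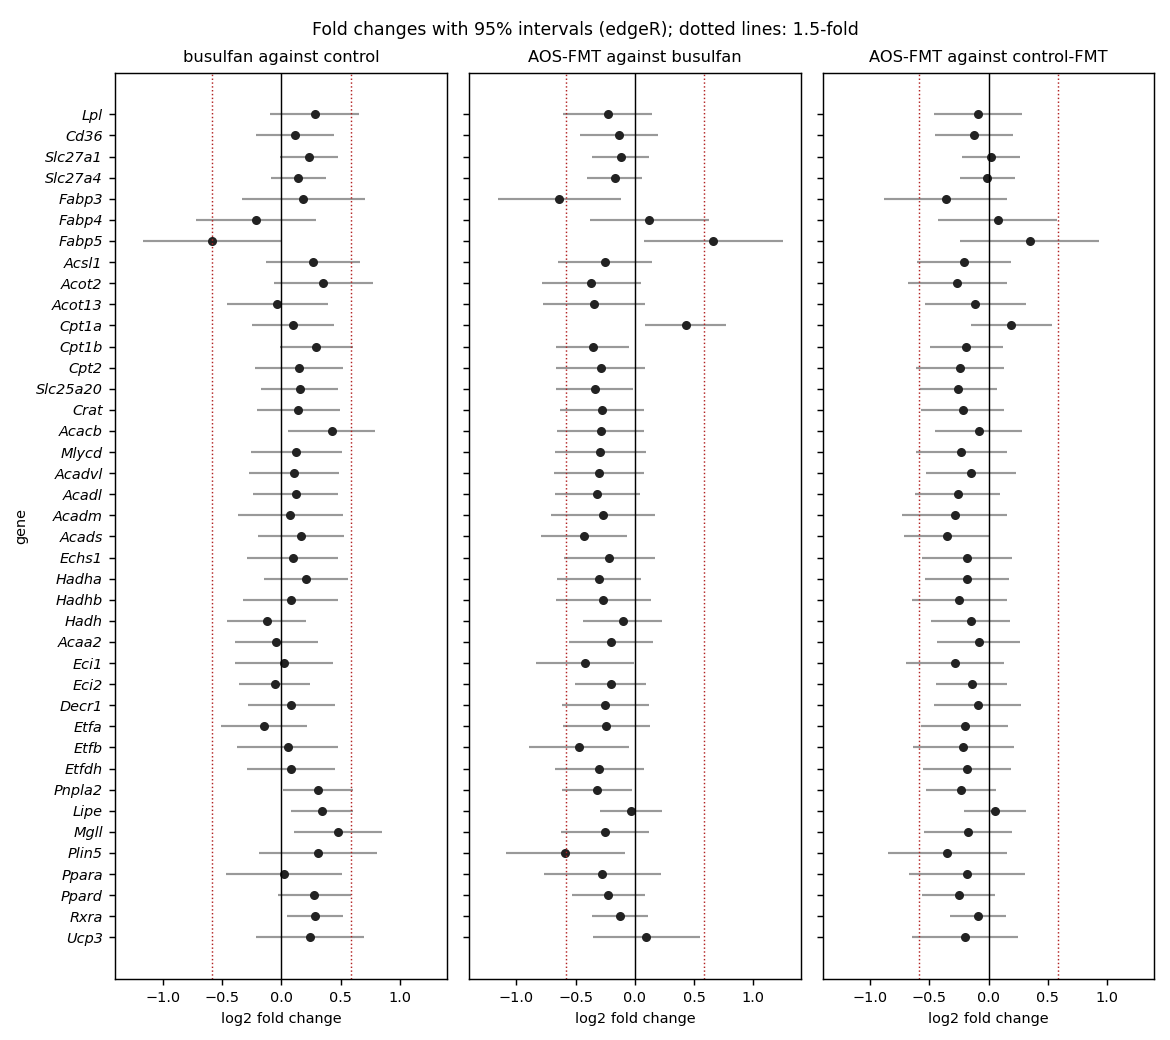
Log2 fold changes of the 40 genes (points) with 95% intervals (lines) from edgeR in 3 of the comparisons, with dotted lines at a 1.5-fold difference. For AOS-FMT against busulfan 36 of 40 points lie left of 0, with Cpt1a, Fabp5, Fabp4 and Ucp3 to the right.

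Some members had groups that did not overlap at all in CPM. Busulfan lay above control for 6 members (Cpt1b, Lpl, Rxra, Acsl1, Acacb and Lipe) and below it for 0, where 7.74% of all genes lay above and 6.38% below. Control-FMT lay below busulfan for 6 (Slc27a4, Cpt1b, Lpl, Fabp3, Etfb and Acacb) and above it for 0, where 6.58% of all genes lay below and 5.41% above. AOS-FMT lay below busulfan for 8 (Slc27a4, Plin5, Acads, Cpt1b, Ppard, Acot13, Fabp3 and Etfb) and above it for Cpt1a, where 10.9% of all genes lay below and 10.3% above. Between AOS-FMT and control-FMT every member overlapped, where 6.52% of all genes lay above and 7.29% below. Control-FMT lay above control for 4 (Rxra, Ucp3, Lipe and Mgll) and below it for 0, where 7.16% of all genes lay above and 4.71% below. AOS-FMT lay above control for Cpt1a and below it for 0, where 6.63% of all genes lay above and 3.8% below.

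The supply and uptake genes bring fatty acids to the mitochondria. Lpl, lipoprotein lipase, was measured at 3326, 2944 and 2528 CPM in control, 3461, 3594 and 3649 CPM in busulfan, 3274, 3186 and 3238 CPM in control-FMT and 3656, 2226 and 3244 CPM in AOS-FMT. All busulfan libraries lay above all control and control-FMT libraries, and AOS-FMT held both the highest and the lowest library. Cd36, the main fatty acid translocase, had 1391, 1212 and 1225 CPM in control, 1437, 1286 and 1428 CPM in busulfan, 1419, 1352 and 1362 CPM in control-FMT and 1507, 976 and 1305 CPM in AOS-FMT. All 4 groups overlapped, and AOS-FMT again spanned the whole range.

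The transport proteins Slc27a1 and Slc27a4, also known as FATP1 and FATP4, activate fatty acids as they enter. Slc27a1 had 147, 129 and 156 CPM in control, 153, 166 and 188 CPM in busulfan, 146, 167 and 147 CPM in control-FMT and 164, 148 and 155 CPM in AOS-FMT. The control-FMT libraries overlapped those of busulfan (log2 fold change -0.14 ± 0.11, adjusted p = 0.999). Slc27a4 was at 38.9, 38.7 and 30.9 CPM in control, 43.7, 38.1 and 38.2 CPM in busulfan, 35.9, 36.8 and 34.8 CPM in control-FMT and 37.4, 33.4 and 36.0 CPM in AOS-FMT. Every busulfan library lay above every library of both FMT groups, and the fold change was -0.16 ± 0.11 in control-FMT (adjusted p = 0.999) and -0.17 in AOS-FMT.

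Among the binding proteins, Fabp3 had 6628, 3279 and 3914 CPM in control, 5523, 5455 and 4750.2 CPM in busulfan, 4700.1, 4332 and 3953 CPM in control-FMT and 4193, 2596 and 3316 CPM in AOS-FMT. Control replicate 1 was the highest library and AOS-FMT replicate 2 the lowest, and the busulfan libraries lay above all libraries of both FMT groups. Its log2 fold change in AOS-FMT against busulfan was -0.64 ± 0.24, with a 95% interval of -1.16 to -0.12 and an adjusted p of 0.306. Without AOS-FMT replicate 2 it was -0.48. Only the end of Fabp3 (chr4:130308738-130315463) overlaps Zcchc17, which starts at 130315383. Since the strand of counting is not stated, reads from that shared stretch may not be told apart.

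Fabp4 and Fabp5 lay on the other side in AOS-FMT. Fabp4 had 667, 319.8 and 653 CPM in control, 528, 493 and 392 CPM in busulfan, 558, 404 and 498 CPM in control-FMT and 548, 505 and 487 CPM in AOS-FMT. Control held both its highest and its lowest libraries, all groups overlapped, and the fold changes were -0.21 ± 0.23 in busulfan against control (adjusted p = 0.787) and 0.12 ± 0.23 in AOS-FMT against busulfan (adjusted p = 0.835). Fabp5, the epidermal fatty acid binding protein, which macrophages and endothelium also make, had 74.1, 92.0 and 81.1 CPM in control, 44.6, 74.2 and 46.3 CPM in busulfan, 60.4, 77.0 and 68.2 CPM in control-FMT and 50.9, 111 and 99.0 CPM in AOS-FMT. Replicates 2 and 3 of AOS-FMT were the highest libraries and busulfan replicates 1 and 3 the lowest, and the groups overlapped.

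For Fabp5 the fold change was -0.58 ± 0.27 in busulfan against control (95% interval -1.17 to 0.00, adjusted p = 0.444), 0.66 ± 0.27 in AOS-FMT against busulfan (0.08 to 1.25, adjusted p = 0.324) and 0.35 ± 0.27 in AOS-FMT against control-FMT (adjusted p = 0.819). The summed macrophage markers ran from 806 to 1125 CPM in control, 527 to 757 CPM in busulfan, 636 to 1177 CPM in control-FMT and 817 to 1184 CPM in AOS-FMT. White adipocyte markers summed to 239 to 404 CPM in control, 126 to 199 CPM in busulfan, 198 to 272 CPM in control-FMT and 216 to 619 CPM in AOS-FMT, but 124 to 577 CPM of a library's sum was the single gene Ccdc80, and Adipoq, a defining marker, reached at most 6.13 CPM. Their part in the Fabp4 and Fabp5 values was not tested.

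Activation and release of acyl-CoA involve an acyl-CoA synthetase and the thioesterases. Acsl1, the main acyl-CoA synthetase of the heart, had 909.8, 828 and 679 CPM in control, 1010.0, 911 and 985 CPM in busulfan, 988, 933 and 900.3 CPM in control-FMT and 1012, 568 and 862 CPM in AOS-FMT. Busulfan lay just above control without overlap, at a log2 fold change of 0.27. Acot2, a mitochondrial acyl-CoA thioesterase, had 67.1, 56.1 and 50.6 CPM in control, 91.6, 56.8 and 73.8 CPM in busulfan, 78.5, 68.2 and 60.1 CPM in control-FMT and 71.3, 45.4 and 55.9 CPM in AOS-FMT. All groups overlapped, and its values are uncertain because Acot1 is a nearly identical copy. Acot13, a thioesterase of mitochondria, had 373, 189.7 and 314 CPM in control, 279, 330.1 and 248 CPM in busulfan, 250.5, 254 and 225 CPM in control-FMT and 238, 203 and 234 CPM in AOS-FMT. Control held the highest and the lowest library, and AOS-FMT lay below busulfan without overlap, at -0.35. In control-FMT against control the Acot13 fold change was -0.27 ± 0.20 (adjusted p = 0.764).

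The carnitine shuttle starts with carnitine palmitoyltransferase 1, the step that malonyl-CoA blocks. Its muscle form Cpt1b made up most of it here, and its liver form Cpt1a was among the 4 members above 0 in AOS-FMT against busulfan. Cpt1a had 35.4, 40.2 and 45.1 CPM in control, 42.5, 40.5 and 46.3 CPM in busulfan, 42.1, 52.0 and 58.3 CPM in control-FMT and 47.9, 71.9 and 54.0 CPM in AOS-FMT. All AOS-FMT libraries lay above all control and busulfan libraries, with AOS-FMT replicate 2 the highest, and control-FMT overlapped the other groups. The log2 fold change was 0.53 ± 0.16 against control (95% interval 0.18 to 0.87, adjusted p = 0.316) and 0.43 ± 0.16 against busulfan (0.09 to 0.77, adjusted p = 0.303). It was 0.19 ± 0.16 against control-FMT (adjusted p = 0.823) and, for control-FMT against busulfan, 0.24 ± 0.16 (adjusted p = 0.999). Without AOS-FMT replicate 2 it was 0.33 against control, 0.25 against busulfan and 0.01 against control-FMT. Liver markers lay above 0 in 10 of 10 in AOS-FMT against busulfan, with a median of 2.90. They summed to 56.5 to 152 CPM in control, 53.9 to 81.6 CPM in busulfan, 61.9 to 97.0 CPM in control-FMT and 119 to 708 CPM in AOS-FMT. The single gene Trf made up 30.5 to 124 CPM of a library's sum, so the sums do not follow most of the markers. In busulfan against control, 7 of the 10 liver markers lay above 0 and 3 below, with a median of 2.53. With the liver score as a covariate the Cpt1a fold change in AOS-FMT was 0.53 against busulfan and 0.68 against control, and with the atrial score it was 0.20 against busulfan and -0.049 against control-FMT. Liver scores did not overlap between control (-0.12 to 0.54), busulfan (1.26 to 1.58) and AOS-FMT (2.28 to 5.08). The fits with that score therefore cannot separate liver RNA from group. Atrial scores did not overlap between AOS-FMT and control-FMT either.

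Cpt1b had 711, 604 and 568 CPM in control, 766, 781 and 765 CPM in busulfan, 716, 718 and 623 CPM in control-FMT and 696, 496 and 614 CPM in AOS-FMT. The 3 busulfan libraries lay within a narrow range above all 9 others. Its fold change in AOS-FMT against busulfan was -0.36 ± 0.14 (95% interval -0.66 to -0.05, adjusted p = 0.312), opposite in sign to that of Cpt1a, and -0.23 without AOS-FMT replicate 2. The other shuttle genes are Cpt2, which rebuilds acyl-CoA inside the mitochondrion, the carnitine carrier Slc25a20 and the carnitine acetyltransferase Crat. All 3 had their lowest library in AOS-FMT replicate 2, with fold changes of -0.29, -0.34 and -0.28 in AOS-FMT against busulfan.

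Promoter windows of Cpt1a and of the uncoupling protein Ucp3 are shown because both genes lay on the other side from most of the set. RefSeq (GRCm38.p6) gives such windows of 300 bases, from 250 before to 50 after the start, for 32 of the 40 genes. They were searched on both strands for the PPAR response element AGGTCANAGGTCA and for AGGTCA alone, which the element contains at both ends. Capitals mark AGGTCA, written TGACCT where it lies on the other strand, in windows on the plus strand at chr19:3323051-3323350 for Cpt1a and chr7:100472741-100473040 for Ucp3.
Cpt1a: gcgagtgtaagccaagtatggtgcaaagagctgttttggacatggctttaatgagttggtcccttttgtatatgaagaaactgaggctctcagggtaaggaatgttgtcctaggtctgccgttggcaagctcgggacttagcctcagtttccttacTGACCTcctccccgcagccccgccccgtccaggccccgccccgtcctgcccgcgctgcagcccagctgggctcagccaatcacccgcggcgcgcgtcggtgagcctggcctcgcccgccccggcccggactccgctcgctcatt
Ucp3: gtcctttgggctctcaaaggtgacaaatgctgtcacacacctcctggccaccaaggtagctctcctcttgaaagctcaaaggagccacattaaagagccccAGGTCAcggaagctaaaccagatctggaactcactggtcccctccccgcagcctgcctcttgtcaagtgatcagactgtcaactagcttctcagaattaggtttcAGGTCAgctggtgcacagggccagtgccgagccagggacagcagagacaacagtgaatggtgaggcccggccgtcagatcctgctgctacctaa
The whole element occurred in 0 of 39 windows of members and in 0.0396% of 32851 windows of all genes. AGGTCA alone occurred in 10 of the 39, or 25.6%, and in 16.3% of all windows, and these 10 belonged to 9 genes, Acacb, Acadm, Acadvl, Cd36, Cpt1a, Echs1, Plin5, Rxra and Ucp3. A match of these letters is a description, not a binding site.

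Ucp3, an uncoupling protein of the inner mitochondrial membrane in muscle, had 34.1, 24.9 and 20.6 CPM in control, 41.0, 24.2 and 28.9 CPM in busulfan, 37.4, 34.1 and 44.0 CPM in control-FMT and 37.0, 35.2 and 28.4 CPM in AOS-FMT. The lowest control-FMT library and the highest control library met at 34.1 CPM, and every other pair of groups overlapped. Its log2 fold change was 0.54 ± 0.21 in control-FMT against control (95% interval 0.08 to 0.99, adjusted p = 0.531), 0.34 ± 0.21 in AOS-FMT against control (adjusted p = 0.678) and 0.30 ± 0.21 in control-FMT against busulfan (adjusted p = 0.999).

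**Figure D4:**
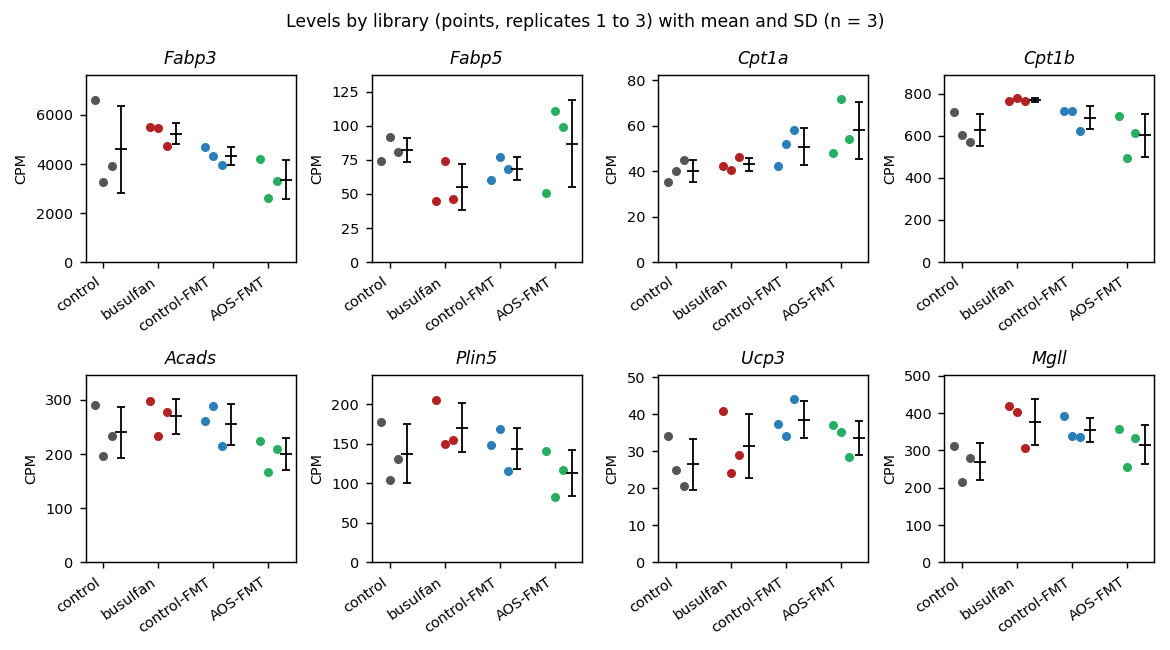
CPM of 8 genes in each of the 12 libraries (points, replicates 1 to 3 from left to right) with the mean and SD of 3 libraries per group. Cpt1a is highest in AOS-FMT, where its 3 libraries lie above all control and busulfan libraries, while the 3 busulfan libraries of Cpt1b lie between 765 and 781 CPM, above all others.

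Malonyl-CoA, the brake on the shuttle, is made by Acacb, acetyl-CoA carboxylase 2, and removed by Mlycd, malonyl-CoA decarboxylase. Acacb had 329.8, 329 and 239 CPM in control, 399, 415 and 394 CPM in busulfan, 376, 347 and 324 CPM in control-FMT and 407, 252 and 329.6 CPM in AOS-FMT. All busulfan libraries lay above all control and control-FMT libraries, with a fold change over control of 0.43 ± 0.17 (95% interval 0.06 to 0.79, adjusted p = 0.384). Mlycd ranged from 131 to 205 CPM over the 12 libraries, with a fold change of 0.13 in busulfan against control. Both genes stood at -0.29 in AOS-FMT against busulfan.

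The 9 genes of the beta-oxidation spiral had fold changes close to each other. In AOS-FMT against busulfan all 9 lay below 0, from -0.43 to -0.10 with a median of -0.27, and 0 were called. In busulfan against control 7 of 9 lay above 0, from -0.12 to 0.21. Acads, the short-chain acyl-CoA dehydrogenase, had 290.4, 197 and 233 CPM in control, 298, 234 and 277 CPM in busulfan, 261, 289 and 214 CPM in control-FMT and 224, 167 and 209 CPM in AOS-FMT. Every AOS-FMT library lay below every busulfan library, and the fold change was -0.43 ± 0.17 against busulfan (95% interval -0.80 to -0.07, adjusted p = 0.31) and -0.35 ± 0.17 against control-FMT (adjusted p = 0.797).

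Acadm, the medium-chain dehydrogenase, had 1306, 865 and 946 CPM in control, 1218, 850.5 and 1215 CPM in busulfan, 1113, 1054 and 1153 CPM in control-FMT and 1108, 684 and 933 CPM in AOS-FMT. Control replicate 1 was the highest and AOS-FMT replicate 2 the lowest, and all groups overlapped. Hadha, the alpha subunit of the trifunctional protein that handles long chains, had 1582, 1227 and 1249.7 CPM in control, 1649, 1431 and 1616 CPM in busulfan, 1484, 1459.8 and 1372 CPM in control-FMT and 1515, 979.9 and 1302 CPM in AOS-FMT. All groups overlapped, and AOS-FMT replicate 2 was again the lowest. Its partner Hadhb, the beta subunit, ranged from 1096 to 2055 CPM, with the lowest library in AOS-FMT replicate 2 and the highest in busulfan replicate 1, the same libraries as for Hadha. Their fold changes in AOS-FMT against busulfan were -0.31 and -0.27. Over the 12 libraries the other spiral genes ranged from 675 to 1204 CPM for Acadvl, 693 to 1166 CPM for Acadl, 278 to 438 CPM for Echs1, 173 to 271 CPM for Hadh and 545 to 912 CPM for Acaa2. These encode the very-long-chain and long-chain dehydrogenases, the enoyl-CoA hydratase, the hydroxyacyl-CoA dehydrogenase and the thiolase.

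Hadha and Hadhb lie head to head on chromosome 5, with Hadha at chr5:30119423-30154980 and Hadhb at chr5:30155253-30184593. They are separated by 272 bases, and their promoter windows have 228 bases in common. The window of Hadhb, on the plus strand at chr5:30155003-30155302, is shown because all of it also lies before the start of its partner. Capitals mark the GC box, GGGCGG on the plus strand or CCGCCC on the other.
Hadhb: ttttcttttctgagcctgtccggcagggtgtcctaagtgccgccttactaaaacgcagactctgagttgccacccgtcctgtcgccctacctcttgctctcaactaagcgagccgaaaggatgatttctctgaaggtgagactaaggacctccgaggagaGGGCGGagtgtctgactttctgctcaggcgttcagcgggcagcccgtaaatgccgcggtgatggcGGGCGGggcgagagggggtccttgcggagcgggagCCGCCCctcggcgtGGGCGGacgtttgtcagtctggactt
The GC box occurred in 27 of the 39 windows of members, or 69.2%, and in 35.7% of all windows. The search for it was added after the data were seen. All windows were not limited to genes that passed the filter on low counts, as all members did. The windows of Hadha and Hadhb were counted separately despite the bases in common.

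Unsaturated fatty acids need auxiliary enzymes, and the electrons of the dehydrogenases leave through the electron transfer flavoprotein. Eci1, an enoyl-CoA isomerase, had 393, 231 and 289.8 CPM in control, 361, 274 and 294 CPM in busulfan, 309, 283 and 253 CPM in control-FMT and 275, 191 and 229 CPM in AOS-FMT. AOS-FMT and busulfan overlapped narrowly, at 274.8 CPM for the highest AOS-FMT library and 274.2 CPM for the lowest busulfan library. The fold change in AOS-FMT was -0.42 ± 0.19 against busulfan (adjusted p = 0.36) and -0.40 ± 0.19 against control (adjusted p = 0.584). The other auxiliary genes, the isomerase Eci2 and the dienoyl-CoA reductase Decr1, stood at -0.21 and -0.25 in AOS-FMT against busulfan.

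Etfa and Etfb encode the subunits of the flavoprotein. Etfa had 600.3, 572 and 464 CPM in control, 566, 388 and 525 CPM in busulfan, 495, 492 and 454 CPM in control-FMT and 471, 335 and 446 CPM in AOS-FMT. All groups overlapped. Its fold change was -0.15 ± 0.17 in busulfan (adjusted p = 0.795), -0.19 ± 0.17 in control-FMT (adjusted p = 0.827) and -0.39 ± 0.17 in AOS-FMT (95% interval -0.75 to -0.02, adjusted p = 0.537), each against control. Etfb had 992, 520.2 and 667 CPM in control, 836, 738 and 686 CPM in busulfan, 649.5, 637 and 601 CPM in control-FMT and 629, 489 and 512 CPM in AOS-FMT. Every busulfan library lay above every library of both FMT groups, and control held the highest. Its fold change against busulfan was -0.26 ± 0.20 in control-FMT (adjusted p = 0.999) and -0.47 ± 0.20 in AOS-FMT (95% interval -0.90 to -0.05, adjusted p = 0.329). Against control it was -0.21 ± 0.20 in control-FMT (adjusted p = 0.835) and -0.42 ± 0.20 in AOS-FMT (adjusted p = 0.571). Without control replicate 1 these became 0.07 and -0.13. Etfdh, which hands the electrons to ubiquinone, stood at -0.30 in AOS-FMT against busulfan and overlaps Ppid in position. Of the set, 17 members overlap another gene in position. For 4 of them that gene is in the deposited table, and these include Crat with Dolpp1 and Echs1 with Paox. Cpt1b and Lipe lie wholly inside the long noncoding RNA genes Gm44502 and 4732471J01Rik, which are not in that table.

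Lipolysis frees fatty acids from stored triglyceride in 3 steps. Pnpla2, adipose triglyceride lipase, takes the first and had 601, 522 and 502 CPM in control, 729, 590.3 and 699.6 CPM in busulfan, 645, 687 and 563 CPM in control-FMT and 607, 496 and 513 CPM in AOS-FMT. Busulfan overlapped control and AOS-FMT in 1 library each. The fold change was 0.31 ± 0.14 in busulfan against control (adjusted p = 0.42), -0.32 ± 0.14 in AOS-FMT against busulfan (adjusted p = 0.334) and -0.23 ± 0.14 in AOS-FMT against control-FMT (adjusted p = 0.797).

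Lipe, hormone-sensitive lipase, takes the next step and had 37.3, 28.1 and 36.2 CPM in control, 43.2, 45.3 and 40.5 CPM in busulfan, 38.2, 40.8 and 42.3 CPM in control-FMT and 44.9, 44.5 and 36.6 CPM in AOS-FMT. All busulfan and control-FMT libraries lay above all control libraries. Among members it had the smallest p for busulfan over control, at 0.35 ± 0.12 (95% interval 0.08 to 0.61, adjusted p = 0.344). In AOS-FMT the fold change was 0.31 ± 0.12 over control (adjusted p = 0.485) and 0.06 ± 0.12 over control-FMT (adjusted p = 0.937).

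Mgll, monoglyceride lipase, takes the last step and had 313, 216 and 281 CPM in control, 419, 403 and 305 CPM in busulfan, 392, 339.6 and 335 CPM in control-FMT and 356, 257 and 333 CPM in AOS-FMT. Control-FMT lay above control without overlap, and busulfan overlapped control in 1 library. Against control its fold change was 0.48 ± 0.17 in busulfan (95% interval 0.10 to 0.85, adjusted p = 0.351) and 0.40 ± 0.17 in control-FMT (0.03 to 0.77, adjusted p = 0.574). Plin5, which tethers lipid droplets to mitochondria and restrains lipolysis, had 177, 104 and 130.3 CPM in control, 205, 149.5 and 155 CPM in busulfan, 148, 168 and 116 CPM in control-FMT and 141, 82.6 and 116 CPM in AOS-FMT. Every AOS-FMT library lay below every busulfan library, at -0.59 ± 0.23 (95% interval -1.09 to -0.09, adjusted p = 0.31), and at -0.40 without AOS-FMT replicate 2.

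The nuclear receptors that act on these genes had lower levels, per length, than most of the set, between 10.6 TPM for Ppara and 25.8 TPM for Rxra, which are the 53.2 and 74.1 percentiles of the genes tested. Ppara, the receptor most tied to fatty acid oxidation, had 59.4, 72.5 and 47.5 CPM in control, 68.3, 53.5 and 60.8 CPM in busulfan, 61.7, 64.6 and 44.8 CPM in control-FMT and 57.3, 33.2 and 60.8 CPM in AOS-FMT. All groups overlapped, with the highest library in control and the lowest in AOS-FMT, and its fold changes lay between -0.27 and 0.03 over the 6 comparisons. Ppard, a related receptor abundant in muscle, had 50.8, 56.6 and 39.7 CPM in control, 64.9, 57.2 and 56.3 CPM in busulfan, 67.1, 60.4 and 54.0 CPM in control-FMT and 53.2, 43.2 and 56.2 CPM in AOS-FMT. Busulfan and AOS-FMT were separated by about 0.1 CPM, and in AOS-FMT against control-FMT the fold change was -0.25 ± 0.14 (adjusted p = 0.797).

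Rxra, the shared partner of these receptors, had 84.3, 87.9 and 81.6 CPM in control, 106, 101 and 102 CPM in busulfan, 108, 102 and 91.3 CPM in control-FMT and 105, 81.1 and 97.8 CPM in AOS-FMT. All busulfan and control-FMT libraries lay above all control libraries. Its fold change over control was 0.29 ± 0.11 in busulfan (95% interval 0.05 to 0.52, adjusted p = 0.365) and 0.25 ± 0.11 in control-FMT (0.02 to 0.49, adjusted p = 0.576). Across the set, the highest library in CPM was 1.34 times (Rxra) to 2.55 times (Fabp3) the lowest, and the coefficient of variation over the 12 libraries ran from 8.62% for Slc27a4 to 28.4% for Fabp5.

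Other genes of lipid handling were counted from 6 further lists, which held 92 genes with 86 tested. They cover further PPAR-responsive genes, coactivators and energy regulators, peroxisomal oxidation, fatty acid synthesis, triglyceride synthesis with droplet proteins, and further uptake and activation genes. None of the 86 was called by edgeR in any of the 6 comparisons. In AOS-FMT against busulfan 28 lay above 0 and 58 below, with a median of -0.12, and at an unadjusted p under 0.05 there were 5 higher and 7 lower, where 7.8% and 5.85% of all genes were. In busulfan against control 49 lay above 0 and 37 below, with a median of 0.03, and there were 4 higher and 1 lower, where 5.54% and 5.78% of all genes were. Peroxisomal genes lay below 0 in 11 of 14 in AOS-FMT against busulfan, where 49.3% of all genes did. Fatty acid synthesis genes lay above 0 in 8 of 14, near the 50.7% of all genes.

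Pdk4, a kinase that turns off glucose oxidation when fatty acids are used, had 225, 284 and 180.5 CPM in control, 281, 151 and 234 CPM in busulfan, 251, 198 and 286 CPM in control-FMT and 307, 371 and 337 CPM in AOS-FMT. Every AOS-FMT library lay above all 9 others. Its fold change in AOS-FMT was 0.61 ± 0.22 against busulfan (adjusted p = 0.302), 0.56 ± 0.22 against control (adjusted p = 0.501) and 0.46 ± 0.22 against control-FMT (adjusted p = 0.797).

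Among the smallest p-values of these lists in AOS-FMT against busulfan were the lipase maturation factor Lmf1 at -0.48 ± 0.15 (adjusted p = 0.294), the peroxisomal and mitochondrial dienoyl-CoA isomerase Ech1 at -0.56 ± 0.20, the droplet protein Plin3 at -0.51 ± 0.17 and the desaturase Fads2 at 0.55 ± 0.19 (adjusted p = 0.296 for all 3). In busulfan against control they were the thioesterase Acot1 at 0.66 ± 0.22 (adjusted p = 0.341), the peroxisomal protein Pex11a at 0.41 ± 0.15 (adjusted p = 0.355), the lipogenic regulator Srebf1 at 0.28 ± 0.11 (adjusted p = 0.38) and the acyl-CoA synthetase Acsl6 at -0.65 ± 0.26 (adjusted p = 0.389). The Acot1 value is uncertain for the same reason as those of Acot2, its nearly identical copy. Ppargc1a, the coactivator of mitochondrial genes, gave fold changes between -0.10 and 0.00 in AOS-FMT and control-FMT against the other groups, and -0.03 ± 0.19 in busulfan against control (adjusted p = 0.972). Plin2, the general droplet protein, and Angptl4, an inhibitor of lipoprotein lipase, were not called either, at -0.23 ± 0.14 (adjusted p = 0.466) and 0.61 ± 0.45 (adjusted p = 0.536) in AOS-FMT against busulfan.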

How the data were processed

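RNA-seq libraries of 12 mouse heart samples in 4 groups of 3 were used. The table deposited by the authors held estimated counts per gene, per the file headers, and 94.7% to 95.3% of the values in a library were whole to within 1e-09. The authors also deposited TPM, used here only to compare levels between genes, and FPKM, which was not used, per the file headers. Another 12 columns of the authors' group means were not used. The submitters' processing notes name Bowtie 0.12.2 and mm10. How reads were counted, on which strand and with which annotation is not given in the sources used here. Of 17536 gene IDs, 17487 matched a RefSeq table of GRCm38.p6, including all 40 members.

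Estimated counts were rounded, filtered with filterByExpr, scaled by TMM (factors 0.908 to 1.08) and tested with edgeR 4.0.16 (robust quasi-likelihood fit, R 4.3.3). The fit held all 12 libraries with a term for group only, with a common biological coefficient of variation of 18.6% and a median standard error of 0.163 for busulfan against control. P-values were adjusted over all 13489 genes. The procedure was tested on simulated data. No recovery rate is given for differences as small as those of the members, so that run does not bear on the absence of calls. Alternatives were DESeq2 1.42.0, limma-voom 3.58.1, other scalings, no filter, 6-library fits, leaving out each library, a replicate block and 3 marker scores as covariates.

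The members and lists were chosen with earlier results of these data known. Values in every library were given for the 3 members with the smallest p in each direction of each comparison and for 12 fixed members (Cd36, Fabp3, Lpl, Acsl1, Cpt1a, Cpt1b, Acadm, Hadha, Ppara, Ucp3, Acot2 and Pnpla2), Acacb was added after its values were seen, and other members were given by range or fold change. Of the other lists, genes with the smallest p and the fixed genes Pdk4, Angptl4, Ppargc1a and Plin2 were named, and 1 further gene of that rule is not reported here.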

Additional observations from a re-analysis of the deposited data

How the results depend on the processing

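No member of the set was called under any of the 22 alternatives, DESeq2 and limma-voom included. With DESeq2, 119 of all genes were called in busulfan against control, where edgeR called 8. Leaving out each library in turn gave a members' median log2 fold change of 0.07 to 0.26 for busulfan over control and 0.00 to 0.19 for control-FMT over control. It gave -0.26 to 0.00 for AOS-FMT over control, -0.39 to -0.11 for AOS-FMT over busulfan, -0.28 to -0.05 for AOS-FMT over control-FMT and -0.16 to -0.01 for control-FMT over busulfan. With the atrial score as a covariate the median was -0.10 for busulfan over control, 0.049 for AOS-FMT over control-FMT and -0.15 for control-FMT over control. With the white adipocyte score it was 0.033 for control-FMT against busulfan. Among single genes, the atrial covariate turned AOS-FMT against control-FMT to -0.049 for Cpt1a. Atrial scores of AOS-FMT and control-FMT did not overlap, so this covariate cannot be separated from group in that comparison. For Etfb in control-FMT against control, leaving out single libraries gave -0.40 to 0.075, the last without control replicate 1. The cause was not tested. Without scaling beyond library size, the median of all genes in AOS-FMT against busulfan was 0.14 and that of the members -0.14.

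The replicate numbers were not taken to pair the libraries, since the labels name no shared source and not every same-numbered pair correlated over 0.1. Same-numbered libraries of different groups correlated at -0.16 to 0.45 over 18 pairs, 10 of them over 0.1, including all 6 pairs of replicate 1, and 4 of 12 libraries correlated best with their own number. With the replicate number as a block, 0 members were called in every comparison, and the medians over control were 0.14 for busulfan, 0.09 for control-FMT and -0.14 for AOS-FMT. Over busulfan they were -0.08 in control-FMT and -0.27 in AOS-FMT, and AOS-FMT over control-FMT gave -0.20. The number of libraries limits the precision: the median 95% interval of a member in busulfan against control reached 0.37 to either side on the log2 scale.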

Other observations

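Cpt1a and Cpt1b lay on opposite sides in AOS-FMT against busulfan, so the share of Cpt1a in the sum of both was computed from the authors' deposited TPM, a measure chosen after the data were seen. Control libraries had shares of 3.14%, 4.14% and 4.89%, busulfan libraries 3.48%, 3.26% and 3.79%, control-FMT libraries 3.68%, 4.48% and 5.73%, and AOS-FMT libraries 4.28%, 8.62% and 5.41%. Every AOS-FMT library lay above every busulfan library, and AOS-FMT replicate 2 was the highest. The mean was 6.10% ± 2.25 (SD, n = 3) for AOS-FMT, against 4.63% ± 1.03 for control-FMT, 3.51% ± 0.263 for busulfan and 4.06% ± 0.882 for control. The two-sided exact permutation p was 0.1 for AOS-FMT against busulfan, the smallest that 3 against 3 libraries allow, and 0.4 after adjustment over the 6 comparisons. The unadjusted p was 0.5 when AOS-FMT was set against control-FMT and 0.2 against control.

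Acsl6, an acyl-CoA synthetase outside the set, lay below control in the busulfan, control-FMT and AOS-FMT groups. It had 11.3, 15.5 and 12.5 CPM in control, 8.01, 6.79 and 10.2 CPM in busulfan, 7.84, 8.10 and 6.73 CPM in control-FMT and 8.72, 4.39 and 10.5 CPM in AOS-FMT, and no library of the other groups reached the lowest control library. The fold changes against control were -0.65 ± 0.26 (edgeR adjusted p = 0.389), -0.79 ± 0.26 (adjusted p = 0.438) and -0.74 ± 0.26 (adjusted p = 0.416). These comparisons share the 3 control libraries.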
